A study of Mus musculus with 50 samples.

Results

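The Hoxc cluster on mouse chromosome 15 holds 9 homeobox genes, Hoxc4, Hoxc5, Hoxc6, Hoxc8, Hoxc9, Hoxc10, Hoxc11, Hoxc12 and Hoxc13. They were taken by name, and all 9 have a row among the 18055 genes of the expression table. In the mm9 build the cluster ran from the first base of Hoxc13 to the last base of Hoxc4, chr15:102751534-102867274 or 115.7 kb, and every member is read on the plus strand. The cells were E14 mouse embryonic stem cells (ESCs), wild type (WT) or mutant for the PRC2 methyltransferases EZH1 and EZH2. The mutant lines were Ezh2 KO, with EZH1 as the remaining enzyme, Ezh1KO Ezh2KO (Ezh1/2 dKO), with neither, and the point mutants Ezh2 Y726D, which is catalytically inactive, and Ezh2 R685C, both knocked in on an Ezh1 KO background. The labels of the SUZ12 and H3K27me3 samples used for the Y726D line name no Ezh1 deletion, whereas those of the other Y726D assays analysed here do. For 1 assay Ezh1/2 dKO cells were rescued with HA-tagged human EZH1 from a transfected vector. The mutant lines were clones made by CRISPR in the E14 line, and all cells were grown with LIF and kinase inhibitors, so a difference from WT may also hold differences between clones. SMART-seq2 RNA libraries, 2 per line, covered WT, Ezh2 Y726D, Ezh1/2 dKO and Ezh2 KO, and the labels do not say whether the 2 came from separate cultures, so p-values measure the spread between libraries, which may be technical. The ChIP-seq and ATAC-seq files were lists of enriched regions, 1 library per line and target, and are described without a test.

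Hox genes encode homeodomain transcription factors that set position along the body axis, and genes at the Hoxc13 end of a cluster act further towards the tail than those at the Hoxc4 end. In ESCs the clusters are textbook targets of PRC2, which places H3K27me1, H3K27me2 and H3K27me3 through EZH1 or EZH2 and needs its subunit SUZ12. H3K27ac, found at active promoters and enhancers, is placed on the same lysine and cannot share it with methylation. The cluster also carries the non-coding RNA Hotair, on the minus strand between Hoxc12 and Hoxc11, and the microRNA genes Mir196a-2 and Mir615.

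The 5 stretches of the cluster below are among those the region lists turn on, and their mm9 plus-strand sequences are given 5′ to 3′ with every CG dinucleotide in capitals, since CG-rich DNA is where PRC2 is typically found. The first 4 are 201 bases centred on the summit of the strongest region of a list inside the cluster, and the last is the 250 bases before the start of Hoxc13, the member with the highest mean in WT, although Hoxc4 was higher in WT replicate 1.
WT SUZ12, Hoxc9 coding exon, chr15:102812337-102812537: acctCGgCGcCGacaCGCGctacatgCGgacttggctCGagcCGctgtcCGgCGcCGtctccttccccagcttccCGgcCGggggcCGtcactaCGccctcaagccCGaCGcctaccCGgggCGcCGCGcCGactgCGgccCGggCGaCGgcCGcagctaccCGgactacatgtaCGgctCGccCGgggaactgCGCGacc
Ezh2 Y726D SUZ12, Hoxc5 coding exon, chr15:102845569-102845769: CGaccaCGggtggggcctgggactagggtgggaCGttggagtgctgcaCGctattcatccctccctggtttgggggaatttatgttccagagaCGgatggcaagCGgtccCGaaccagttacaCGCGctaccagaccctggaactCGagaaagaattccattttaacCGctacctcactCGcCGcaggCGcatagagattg
Ezh2 Y726D H3K27ac, between Hoxc13 and Hoxc12, chr15:102762513-102762713: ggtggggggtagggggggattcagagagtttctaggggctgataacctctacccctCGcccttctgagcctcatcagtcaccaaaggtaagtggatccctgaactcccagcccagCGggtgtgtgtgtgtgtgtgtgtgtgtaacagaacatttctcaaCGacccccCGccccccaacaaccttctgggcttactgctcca
Ezh2 R685C H3K27ac, Hoxc12 coding exon, chr15:102767647-102767847: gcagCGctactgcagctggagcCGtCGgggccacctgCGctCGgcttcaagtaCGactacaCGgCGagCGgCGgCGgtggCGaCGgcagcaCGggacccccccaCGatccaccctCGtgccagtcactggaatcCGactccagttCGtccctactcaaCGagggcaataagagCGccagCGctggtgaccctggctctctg
Before Hoxc13, chr15:102751284-102751533: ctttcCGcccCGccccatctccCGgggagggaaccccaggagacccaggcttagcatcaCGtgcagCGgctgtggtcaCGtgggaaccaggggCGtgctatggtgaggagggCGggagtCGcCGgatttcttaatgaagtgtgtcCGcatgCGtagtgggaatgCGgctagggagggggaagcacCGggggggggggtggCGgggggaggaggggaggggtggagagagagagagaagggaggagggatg

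The WT SUZ12 summit in Hoxc9 held 33 CG dinucleotides in 201 bases, a number reached by 0.167% of the 5404 WT SUZ12 summits genome-wide, whose median was 16. The Ezh2 Y726D SUZ12 summit in Hoxc5 held 14, a number reached by 61.2% of them. The acetylated Hoxc12 exon held 21, and the acetylated stretch between Hoxc13 and Hoxc12 held 4. Over the 32 WT SUZ12 regions of the cluster the median was 11.5, with a range of 0 to 33. Over the 18 SUZ12 regions of Ezh2 R685C there it was 7.5, with a range of 2 to 21. Before the member starts the number ran from 4 at Hoxc4 and 6 at Hoxc5 to 15 at Hoxc13 and 23 at Hoxc8, against a median of 8 over 22362 protein-coding genes with 250 readable bases. Hoxc4 and Hoxc5 were below that median.

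The RNA libraries held 3604123 to 5181553 reads on genes. Expression is given as the authors' normalized count, in which 1 read was worth between 0.824 and 1.33 units in the different libraries, and the whole reads behind each value were recovered from the table. The deleted genes followed the labels. Ezh2 stood at 598 and 546 normalized counts in WT, 1.05 and 0.968 in Ezh2 KO, 0.824 and 1.78 in Ezh1/2 dKO and 422 and 613 in Ezh2 Y726D. Ezh1 stood at 227 and 377 in WT, 372 and 378 in Ezh2 KO, and between 14 and 24.1 in the Ezh1/2 dKO and Ezh2 Y726D libraries. The 8 pluripotency markers, Pou5f1 and Nanog among them, summed to between 11950 and 14930 normalized counts in every library, and none of the 8 was called in a comparison with WT (limma, adjusted p below 0.1). The 2 WT libraries stood apart from each other for several members, as given below, and the values without each of them are given where they matter.

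Hoxc13, the tail-most gene, had the highest mean of the members in WT and Ezh2 KO, below Hoxc4 in the other lines, and no difference between lines passed the test for it. Hoxc13 (chr15:102751534-102759245) gave 12 and 79.9 normalized counts in WT, 55.4 and 79.3 in Ezh2 KO, 54.4 and 56.8 in Ezh1/2 dKO and 49 and 43.6 in Ezh2 Y726D. The WT libraries enclosed every mutant value, so no order can be read. On the log2 scale of normalized count + 1 it differed from WT by 1.05 in Ezh2 KO (limma adjusted p = 0.724), 0.80 in Ezh1/2 dKO (adjusted p = 0.566) and 0.54 in Ezh2 Y726D (adjusted p = 0.811), each ± 0.69 (SE). Without WT replicate 1 all 3 differences turned negative, at -0.27, -0.52 and -0.78, and without WT replicate 2 all 3 were called, at 2.37, 2.12 and 1.86 (adjusted p = 0.0622, 0.0613 and 0.0803). Hoxc12 (chr15:102767188-102769040), its neighbour, gave 2.67 and 10.6 normalized counts in WT, 1.05 and 18.4 in Ezh2 KO, 9.07 and 5.33 in Ezh1/2 dKO and 9.81 and 5.59 in Ezh2 Y726D. Its groups overlapped throughout, and the differences from WT were -0.05, 0.29 and 0.37 on the log2 scale, each ± 1.02 (SE), with 95% intervals of -2.35 to 2.25, -2.01 to 2.59 and -1.93 to 2.67. Hoxc11 (chr15:102784858-102788139) had almost no reads: 0 in both WT and both Ezh2 Y726D libraries, 1 and 3 in Ezh2 KO, and 0 and 1 in Ezh1/2 dKO. Its 4 Ezh2 KO reads, beside 0 in WT, are too few for a fold. Hotair, which lies beside it, had 1 and 2 reads in WT, 2 and 13 in Ezh2 KO, 10 and 8 in Ezh1/2 dKO and 5 and 1 in Ezh2 Y726D. Both Ezh1/2 dKO libraries were above the WT and Ezh2 Y726D libraries in reads, and no test was made of it.

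Hoxc10 was the member with the clearest rise. Hoxc10 (chr15:102797227-102802324), a gene of the lumbar and hindlimb level, gave 0 and 4.81 normalized counts in WT, 13.6 and 15.5 in Ezh2 KO, 11.5 and 23.1 in Ezh1/2 dKO and 25 and 24.6 in Ezh2 Y726D. All 6 mutant libraries lay above both WT libraries. The log2 difference from WT was 2.69 ± 0.79 (SE) in Ezh2 KO (adjusted p = 0.298), 2.85 ± 0.79 in Ezh1/2 dKO (adjusted p = 0.0994) and 3.42 ± 0.79 in Ezh2 Y726D (adjusted p = 0.0735), so that it was called in the last 2. Its reads rose from 5 in the WT pair to 29, 40 and 50 in the 3 mutant pairs. Hoxc10 was not called in Ezh1/2 dKO or Ezh2 Y726D without WT replicate 1, the library in which it had no read, nor by edgeR on the recovered reads. Without that library its difference from WT fell to 1.42 for Ezh2 KO, to 1.58 for Ezh1/2 dKO and to 2.15 for Ezh2 Y726D. Hoxc9 (chr15:102806870-102815530), next along the cluster, gave 0 and 3.85 normalized counts in WT, 2.09 and 7.74 in Ezh2 KO, 12.4 and 18.6 in Ezh1/2 dKO and 14.3 and 12.3 in Ezh2 Y726D. The Ezh1/2 dKO and Ezh2 Y726D libraries lay above every WT and Ezh2 KO library, which overlapped each other. Its log2 differences from WT were 1.24, 2.88 and 2.69, each ± 0.84 (SE), and none passed, with adjusted p of 0.733, 0.114 and 0.171. Without WT replicate 1, where it had no read, they fell to 0.10, 1.74 and 1.56, and without WT replicate 2 the last 2 were called, at 4.02 and 3.83 (adjusted p = 0.0666 and 0.0759). With a replicate block Hoxc9 was called in Ezh1/2 dKO (adjusted p = 0.0984).

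Hoxc8 and Hoxc6 lay below the limit of a mean of 5 normalized counts and were not tested. Hoxc8 (chr15:102821053-102824698), known for its role in the thorax, had 0 and 1 reads in WT, 2 and 3 in Ezh2 KO, 4 and 7 in Ezh1/2 dKO and 8 and 8 in Ezh2 Y726D. The 4 pairs did not overlap in normalized counts. The summed reads gave a ratio to WT of 4.49 (95% counting interval 0.503 to 213) in Ezh2 KO, 8.41 (1.22 to 362) in Ezh1/2 dKO and 14.2 (2.21 to 595) in Ezh2 Y726D, intervals that cover counting error only and rest on 1 WT read. Hoxc6 (chr15:102828688-102842312) had 0 reads in both WT libraries and 0, 1, 2, 1, 1 and 1 in the mutant libraries in the same order, which is too few for any comparison.

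At the head-most end Hoxc4 rose and Hoxc5 ran beside it. Hoxc4 (chr15:102849367-102867274) gave 21.3 and 7.7 normalized counts in WT, 22 and 51.3 in Ezh2 KO, 47.8 and 75.5 in Ezh1/2 dKO and 45.5 and 66 in Ezh2 Y726D. Every mutant library was above both WT libraries, although the lower Ezh2 KO library exceeded the higher WT library by less than 1 unit. The log2 difference from WT was 1.31 ± 0.57 (SE) in Ezh2 KO (adjusted p = 0.549), 2.13 ± 0.57 in Ezh1/2 dKO (adjusted p = 0.0913) and 2 ± 0.57 in Ezh2 Y726D (adjusted p = 0.132). It was called in Ezh1/2 dKO, and there it was also the member called by edgeR and by DESeq2 on the recovered reads, but it was not called there without WT replicate 2, at a difference of 1.45 (adjusted p = 0.19), nor with a replicate block (adjusted p = 0.12). Without WT replicate 1 it was also called in Ezh2 Y726D, at 2.68 (adjusted p = 0.0799). Hoxc5 (chr15:102844246-102847860) gave 0 and 2.89 normalized counts in WT, 4.18 and 2.9 in Ezh2 KO, 6.59 and 22.2 in Ezh1/2 dKO and 16.9 and 10.1 in Ezh2 Y726D. Its differences from WT of 1.19, 2.75 and 2.84, each ± 0.83 (SE), did not pass, with adjusted p of 0.74, 0.122 and 0.144. Without WT replicate 1 they were 0.21, 1.77 and 1.86, and without WT replicate 2 the last 2 were called, at 3.73 and 3.82 (adjusted p = 0.0802 and 0.0837). A long processed transcript, Gm20398, runs from within Hoxc10 to within Hoxc5 on the same strand as the members. Where it overlaps a member, reads of the 2 cannot be told apart. In bulk RNA a change in the number of expressing cells and a change in RNA per cell cannot be told apart either.

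**Figure D1:**
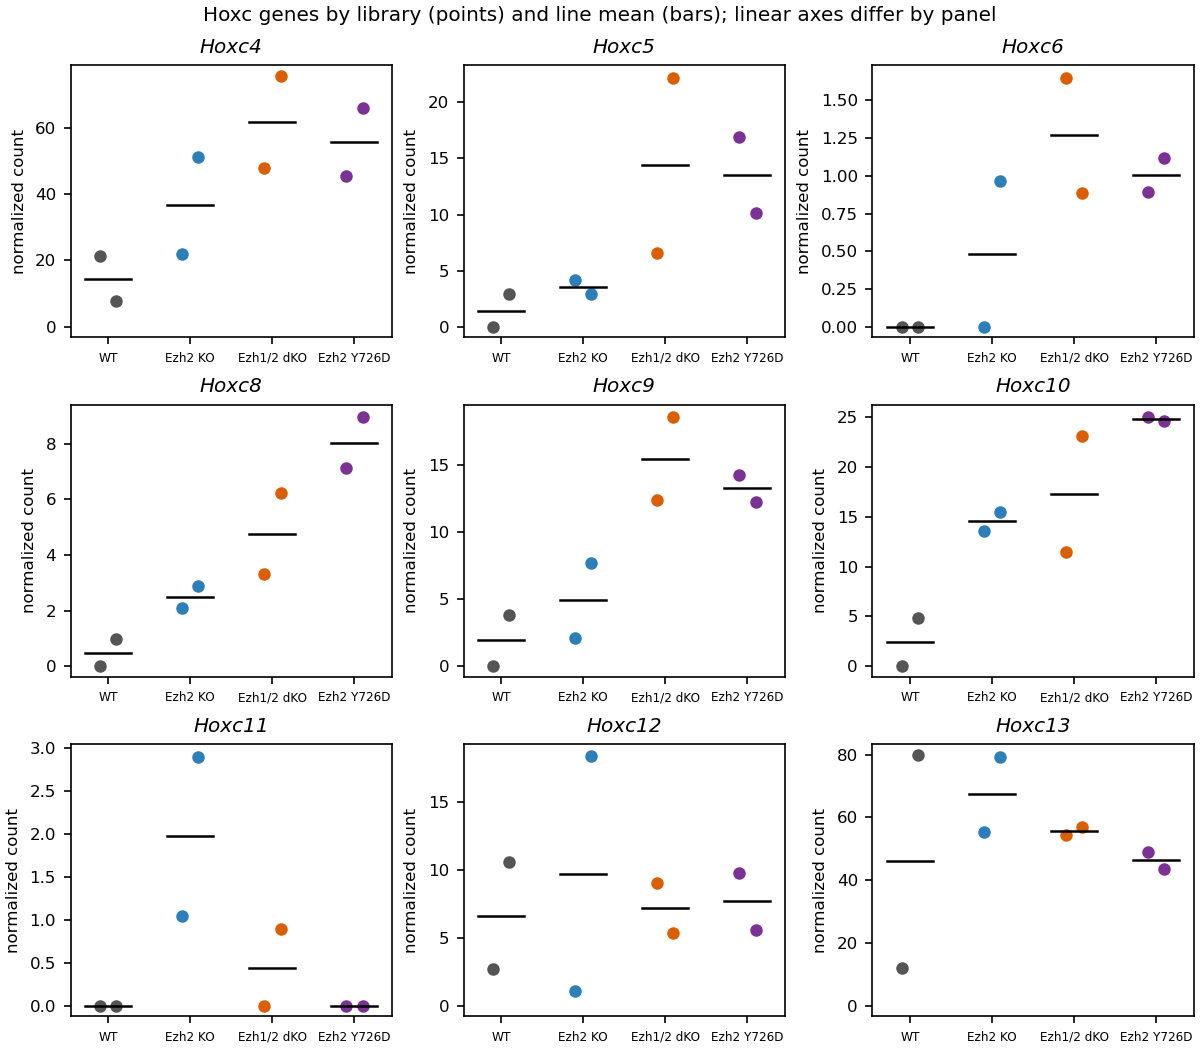
Normalized counts of the 9 Hoxc genes, 1 panel per gene with its own linear axis; each point is 1 of 2 libraries of a line and the bar is their mean. Hoxc10 and Hoxc4 lie above both WT libraries in all 6 mutant libraries, whereas the 2 WT libraries of Hoxc13 enclose the mutant values.

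Against WT, 6 of the 9 members passed the filter on low values and entered the test among 13872 genes. In Ezh2 KO 0 of the 6 were called higher by limma, where 0.0937% of all genes were. An unadjusted p under 0.05 was reached by 2 of them, Hoxc10 and Hoxc4, against 8.83% of all genes, and edgeR and DESeq2 called 0. In Ezh1/2 dKO 2 of 6 rose, Hoxc4 and Hoxc10, against 3.63% of all genes, and in Ezh2 Y726D 1 of 6 rose, Hoxc10, against 1.66%. The libraries of a line lay wholly above WT for 3 of 6 members in Ezh2 KO (18% of all genes), 4 of 6 in Ezh1/2 dKO (28%) and 4 of 6 in Ezh2 Y726D (19%). The median log2 difference of the 6 was 1.21, 2.44 and 2.35, beside -0.01, 0.01 and -0.01 over all genes tested. A member whose WT level is near 0, such as Hoxc5, Hoxc9 or Hoxc10, passes the filter through its higher group. These medians, and the counts of members called or lying above WT beside the shares of all genes, therefore carry no weight as a test. Without WT replicate 2 the members called numbered 2 in Ezh2 KO and 4 each in the other two, and without either of the 2 libraries of the mutant line compared with WT they numbered 0 in all 3 comparisons.

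**Figure D2:**
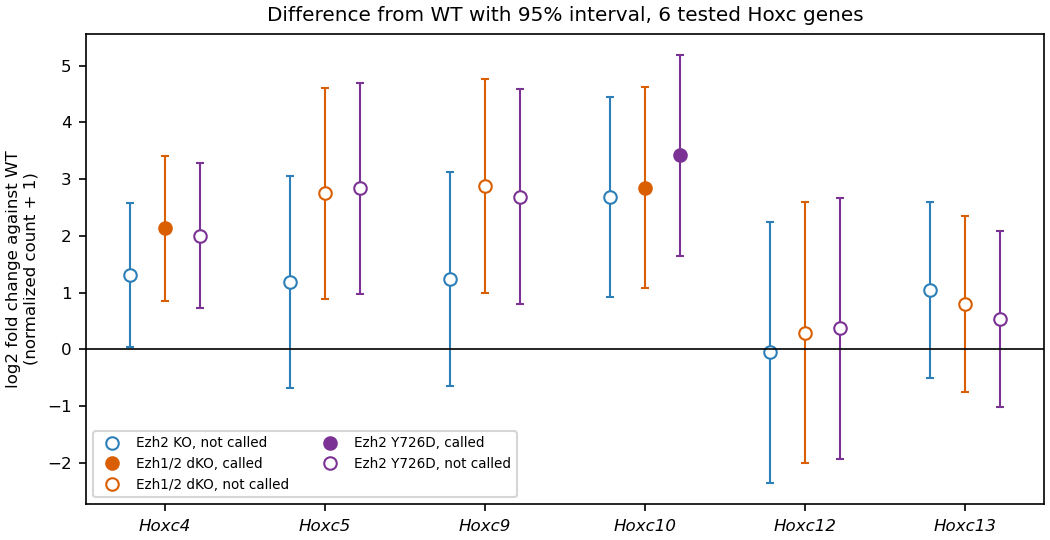
Log2 fold change against WT of the 6 tested members, with 95% intervals from limma; filled points had an adjusted p below 0.1 and a change of at least 1 on the log2 scale. Hoxc4 in Ezh1/2 dKO and Hoxc10 in Ezh1/2 dKO and Ezh2 Y726D are filled, and all intervals of Hoxc12 and Hoxc13 include 0.

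The mutant lines were also compared with each other, as lines with EZH1 only, with neither enzyme, or with an inactive EZH2 and no EZH1. Of the 6 tested members limma called 0 in Ezh1/2 dKO against Ezh2 KO (3.58% of all genes were called in either direction), 0 in Ezh2 Y726D against Ezh2 KO (3.53%) and 0 in Ezh2 Y726D against Ezh1/2 dKO (1.68%). In this limma fit none of the 6 reached an unadjusted p of 0.05 in these comparisons. Some members were under that limit in other settings. Hoxc5 was so by edgeR in Ezh1/2 dKO against Ezh2 KO. With no filter on low values, Hoxc8, which was higher, and Hoxc11, which was lower, were so in Ezh2 Y726D against Ezh2 KO. After adjustment edgeR and DESeq2 called 0 in each comparison. The differences of Ezh1/2 dKO from Ezh2 KO were 1.56 (95% interval -0.30 to 3.42) for Hoxc5 and 1.64 (-0.25 to 3.53) for Hoxc9. Those of Ezh2 Y726D from Ezh2 KO were 1.65 (-0.22 to 3.51) for Hoxc5 and 1.46 (-0.43 to 3.34) for Hoxc9. Intervals this wide leave room for a difference of several fold, so the missing calls do not show that the lines were alike. Per kilobase of annotated exon, WT levels ran from 18.7 normalized counts for Hoxc13, 6.43 for Hoxc12 and 5.68 for Hoxc4 down to 0 for Hoxc6 and Hoxc11, but in WT replicate 1 Hoxc4, at 8.35, was above Hoxc13, at 4.88. In Ezh1/2 dKO the order began with Hoxc4 at 24.1 and Hoxc13 at 22.6 per kilobase, followed by Hoxc10 at 9.07, Hoxc12 at 6.98 and Hoxc9 at 6.38. The libraries of Hoxc4 and Hoxc13 overlapped there, and so did those of the 3 members after them.

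SUZ12 was listed at every member in WT. The WT list held 32 SUZ12 regions over the cluster, at a MACS2 p of at most 1e-10, which covered 41.7% of its bases. The strongest, chr15:102810120-102813290 in Hoxc9, had a −log10 p of 142.6 and ranked 33 among the 5404 regions of the list. All 9 members had a SUZ12 region within 5 kb of a start, as 14.4% of 22367 protein-coding genes did. Windows of neighbouring members overlap and share regions, so the members are not independent counts. Scaled by their own list, Hoxc9 stood highest, with 0.156% of protein-coding genes carrying a stronger region, and Hoxc13 lowest, with 5.59%. H3K27me3 covered 71.3% of the WT cluster in 57 regions, again with a region at all 9 members (18.8% of genes), and 88.1% of the bases in a WT SUZ12 region lay in it. Of the 3 protein-coding genes nearest on each side, Gm17649, which lies 0.3 kb before Hoxc13 and has no row in the expression table, had both marks within 5 kb. The others, Calcoco1, Atp5g2, Smug1, Cbx5 and Hnrnpa1, lie 116.5 to 250.1 kb away, had neither mark within 5 kb of a start, and 0 of them was called in a comparison with WT.

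In Ezh2 KO ESCs SUZ12 was not listed over the cluster, and H3K27me3 was left in scattered regions from Hoxc11 to Hoxc5. The Ezh2 KO SUZ12 list held 1578 regions, of which 0 lay over the cluster and 0 of 9 members had one nearby (4.22% of genes). H3K27me3 kept 8 regions that covered 11.7% of the cluster, and 6 of 9 members had one within 5 kb (14.8% of genes). The strongest, chr15:102810231-102814765 at a −log10 p of 86.72, lay in Hoxc9 over the strongest WT SUZ12 region, and the next, chr15:102819843-102822601 at 64.48, lay over the start of Hoxc8. Smaller regions stood at the starts of Hoxc11 and Hoxc9, between Hoxc8 and Hoxc6, and in Hoxc5. Hoxc13, Hoxc12 and Hoxc10 had none. Of the bases that stayed marked, 96.8% were marked in WT, which was 15.9% of the WT bases. HA-tagged human EZH1, put back into Ezh1/2 dKO ESCs, was also listed: its 18 regions covered 16.2% of the cluster, all 9 members had one nearby (11% of genes), 97.5% of its bases lay in WT SUZ12 regions and it covered 65.5% of the bases with H3K27me3 in Ezh2 KO. The untagged Ezh1/2 dKO control had 0 HA regions over the cluster and 0 of 9 members with one (2.9% of genes).

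The mark below trimethylation filled the same stretch. H3K27me2 in Ezh2 KO covered 75.5% of the cluster in 9 broad regions and included 87.8% of the bases with H3K27me3 in WT, whereas in WT it covered 5.5%, with 33.5% of the Hoxc13 to Hoxc12 stretch and 0% of the stretch from Hoxc11 to Hoxc4. Members with an H3K27me2 region within 5 kb numbered 9 of 9 in Ezh2 KO (51.5% of genes) and 2 of 9 in WT (70%). In Ezh2 Y726D and Ezh1/2 dKO they numbered 9 of 9 each (84.7% and 83.7% of genes), but with 17.5% and 19.4% of the cluster covered and a strongest −log10 p of 1.724 and 1.719 beside 6.39 in Ezh2 KO. H3K27me1 was listed at 0 of 9 members in WT (65.8% of genes), 8 of 9 in Ezh2 KO (59.1%), 5 of 9 in Ezh1/2 dKO (63.1%) and 0 of 9 in Ezh2 Y726D (43.2%). The broad lists reach down to very weak regions, and those of H3K27me1 over the cluster had a −log10 p of at most 2.536.

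Without catalytic activity H3K27me3 was not listed. It was found over 0 bases of the cluster in Ezh1/2 dKO, at 0 of 9 members (0.103% of genes), and over 0 bases in Ezh2 Y726D, at 0 of 9 members (1.35%). SUZ12 was listed over 0 bases in Ezh1/2 dKO, at 0 of 9 members (1.03% of genes). Ezh2 Y726D kept 5 short SUZ12 regions, in Hoxc12, Hoxc9, Hoxc6 and, as a pair, Hoxc5, which covered 1.52% of the cluster and lay wholly inside WT SUZ12 regions, and 5 of 9 members had one within 5 kb (10.3% of genes). Their −log10 p ran from 10.76 to 14.09, and their summits held a median of 20 CG dinucleotides, with a range of 14 to 28. The strongest, chr15:102845505-102845919, is the Hoxc5 stretch printed above.

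In Ezh2 R685C the Hoxc13 end of the cluster differed from the rest, as it also did in Ezh2 KO. SUZ12 covered 27.7% of it in 18 regions and H3K27me3 36.1% in 30 regions, with 8 of 9 members (8.44% of genes) and 7 of 9 members (24.6% of genes) having one nearby. The widest SUZ12 region, chr15:102802485-102814795, ran from behind Hoxc10 across Hoxc9 and held Mir196a-2. From the start of Hoxc11 to the end of Hoxc4, 82.4 kb, SUZ12 covered 38.2% and H3K27me3 47.6% of bases, beside 46.6% and 82.1% in WT. From the start of Hoxc13 to the end of Hoxc12, 17.5 kb, they covered 1.37% and 0%, beside 38.4% and 40.2% in WT. H3K27ac covered 42.8% of the Hoxc13 to Hoxc12 segment and 0% of the other, and 1 short SUZ12 region in Hoxc12, chr15:102767349-102767588, lay inside an acetylated region. The last acetylated base and the first H3K27me3 base of this line lay 3.47 kb apart, behind Hoxc12, and 0 bases of the cluster carried both of these marks. In Ezh2 KO, H3K27me3 covered 0% of the Hoxc13 to Hoxc12 segment and 15.4% of the other, and H3K27ac 16.1% and 1.02%. H3K27ac covered 43.2% and 24.7% in Ezh2 Y726D, and 6.59% and 6.14% in Ezh1/2 dKO. The division into these 2 segments was made after the values were seen, and no RNA library of Ezh2 R685C was analysed here.

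H3K27ac, for which no WT list was analysed here, covered the most bases in Ezh2 Y726D of the 4 lines. It covered 3.17% of the cluster in Ezh2 KO, 5.37% in Ezh1/2 dKO, 7.19% in Ezh2 R685C and 26.7% in Ezh2 Y726D. Members with a region within 5 kb numbered 2 of 9 in Ezh2 KO (37.9% of genes), 6 of 9 in Ezh1/2 dKO (28.7%), 1 of 9 in Ezh2 R685C (46%) and 9 of 9 in Ezh2 Y726D (47.1%). The lists differ in length, from 17618 to 41185 regions. With every list cut to the 17618 strongest regions the counts were 1, 6, 1 and 9. In the same order 32.2%, 28.7%, 34.3% and 31.2% of genes had such a region. The 2 lines with H3K27me3 left had acetylation at 1 or 2 members, and in each of them 0 bases of the cluster carried both marks. By coverage, however, Ezh2 R685C had more acetylation than Ezh1/2 dKO, which had no H3K27me3 listed. At a p of at most 1e-20 the members numbered 0 in Ezh2 KO (18.5% of genes) and 0 in Ezh1/2 dKO (9.28%). In Ezh2 R685C they numbered 1 (33.4%) and in Ezh2 Y726D 7 (24.9%). A link between the 2 marks was not tested. In Ezh2 Y726D 81.6% of the acetylated bases lay in WT SUZ12 regions. All 4 lines shared 2 stretches, chr15:102762381-102762948 between Hoxc13 and Hoxc12 and chr15:102767340-102767850 in Hoxc12. The strongest acetylated region of the cluster in Ezh2 Y726D, chr15:102760837-102764073 with a −log10 p of 46.88, contained the former.

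**Figure D3:**
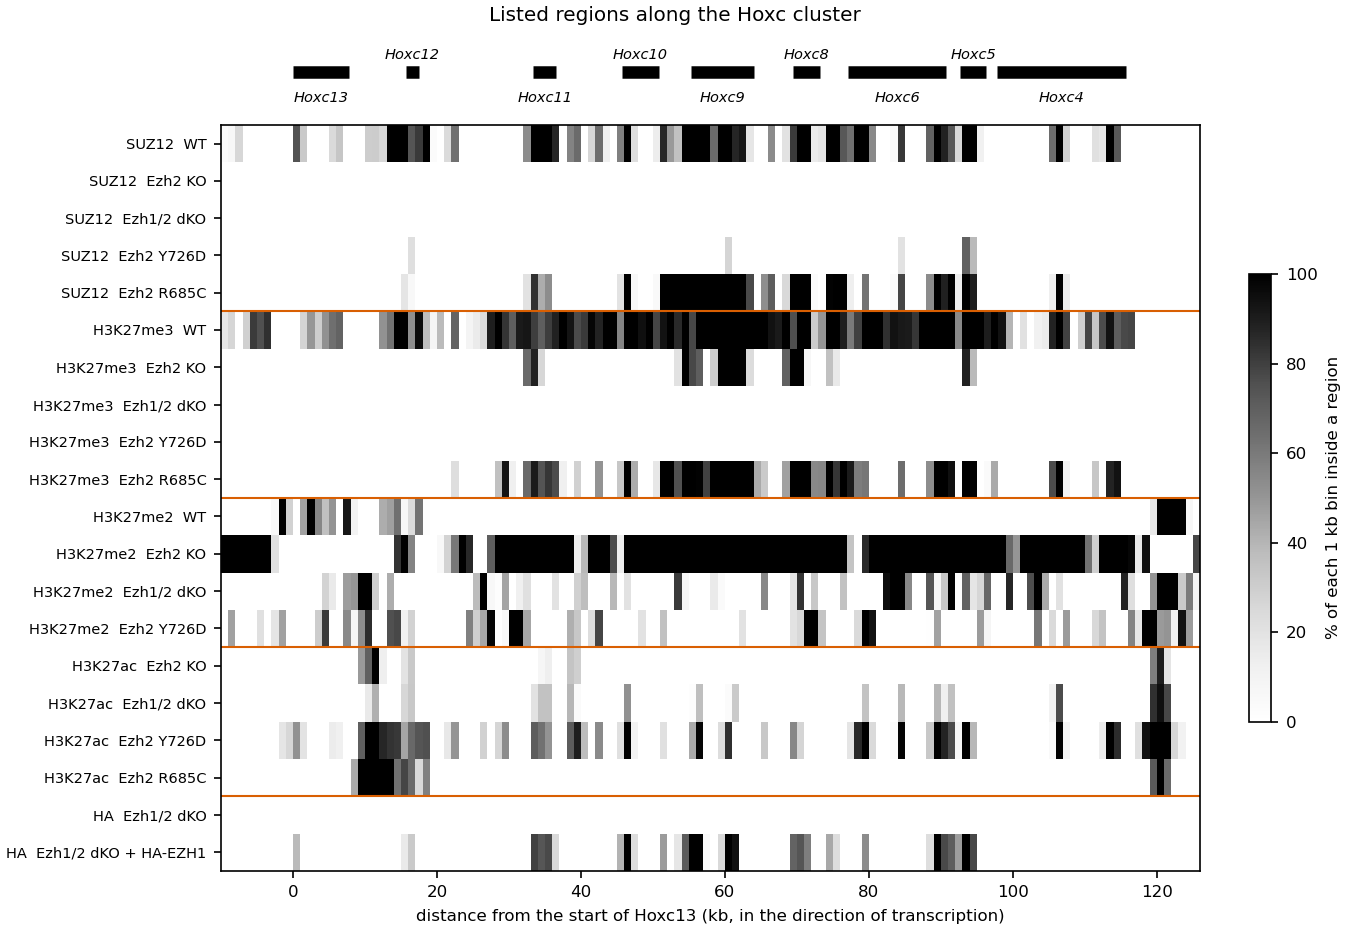
Listed regions in 1 kb bins along the Hoxc cluster and 10 kb on each side, by distance from the start of Hoxc13; rows are lists grouped by target, shading is the percentage of the bin inside a region, and bars on top mark the genes. H3K27me3 of Ezh2 R685C begins 3.47 kb behind its last H3K27ac. H3K27me3 of Ezh2 KO is left mainly around Hoxc9 and Hoxc8, with smaller regions at Hoxc11, between Hoxc8 and Hoxc6, and in Hoxc5.

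ATAC-seq regions, which mark accessible DNA and were called down to weak signals, lay within 5 kb of all 9 members in WT (95.2% of genes), Ezh2 Y726D (95%), Ezh1/2 dKO (95.2%) and Ezh2 KO (95.4%), and covered 40.4%, 43.4%, 43.7% and 40.8% of the cluster. Counts this close to the background say nothing particular of the members. Among the 50000 strongest regions of each list the members with one numbered, in that order, 4, 2, 4 and 1, where 48.5%, 50.8%, 46.7% and 47.8% of genes had one, and these regions covered 4.32%, 5.1%, 6.4% and 0.223% of the cluster. Hoxc12 in Ezh2 Y726D had the highest-placed region of any member and line, with 8.17% of protein-coding genes carrying a stronger one, beside 52.9% in WT, 50.8% in Ezh2 KO and 61% in Ezh1/2 dKO. It was picked as the highest of all these values, and its −log10 p was only 2.732, in 1 library. The strongest Ezh2 Y726D region over the cluster, at 2.814, lay outside every member window. A difference in accessibility at Hoxc12 was not tested.

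In Ezh2 KO the Hoxc cluster had less listed SUZ12 and H3K27me3 than the other Hox clusters. H3K27me3 there covered 11.7% of Hoxc, 82.9% of Hoxa, 53.5% of Hoxb and 77.9% of Hoxd, whereas in WT it covered 71.3%, 78.1%, 43% and 70.3%. The lists differ in strength. The strongest H3K27me3 region over the 4 clusters had a −log10 p of 39.24 in WT, in Hoxd, and of 529.4 in Ezh2 KO, in Hoxa. Coverage therefore sets clusters of the same list side by side and does not measure whether a cluster gained or lost the mark between lines. SUZ12 in Ezh2 KO covered 0% of Hoxc, 24.5% of Hoxa, 7.9% of Hoxb and 19.6% of Hoxd. Hoxc was also lowest in Ezh2 R685C and, for SUZ12, in Ezh2 Y726D. For Hoxc, Hoxa, Hoxb and Hoxd, SUZ12 in Ezh2 R685C covered 27.7%, 69.7%, 42.5% and 58.4%, and H3K27me3 36.1%, 72.2%, 48.7% and 64.8%. SUZ12 covered 1.52%, 8.67%, 4.74% and 10.3% in Ezh2 Y726D, and 41.7%, 54%, 27.8% and 46.8% in WT. With 1 library per line these differences have no replicate check. H3K27ac in Ezh2 R685C covered 7.19% of Hoxc and 0.539%, 1.67% and 0% of Hoxa, Hoxb and Hoxd. Of the tested genes limma called 5 of 6 Hoxa, 1 of 3 Hoxb and 3 of 5 Hoxd genes higher in Ezh1/2 dKO than in WT (3.63% of all genes). They were led by Hoxa10, at a log2 difference of 6.88 (adjusted p = 0.00845), and Hoxd13, at 4.86 (adjusted p = 0.00868). The same numbers held in Ezh2 Y726D (1.66% of all genes). In Ezh2 KO 0 genes of the 3 clusters were called, where 0.0937% of all genes were called higher. Genes near 0 in WT, such as Hoxd13 with 0 in both WT libraries, passed the filter through their mutant libraries. These counts therefore carry no weight as a test either. Whether Hoxc differed from the others was not tested.

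**Figure D4:**
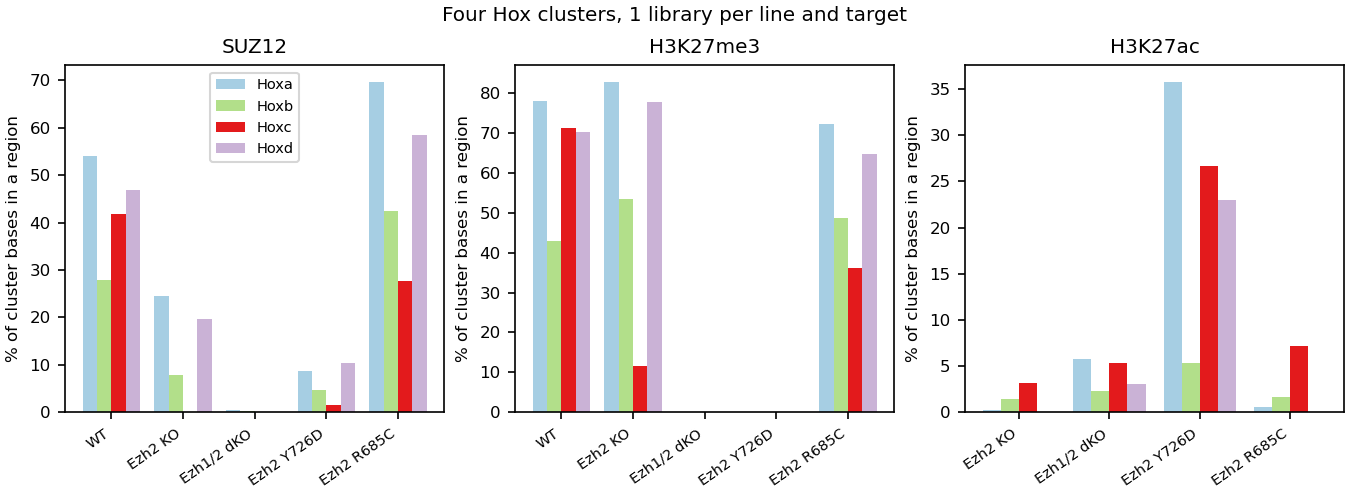
Percentage of the bases of the Hoxa, Hoxb, Hoxc and Hoxd clusters inside a listed region of SUZ12, H3K27me3 or H3K27ac, by line, 1 library per bar and no error. In Ezh2 KO the Hoxc bars of SUZ12 and H3K27me3 are the lowest of the 4 clusters, at 0% and 11.7%.

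Genes of the Hox pathway outside the clusters were followed through fixed lists. Of 9 TALE cofactors, the homeodomain partners that bind DNA with HOX proteins, Meis1 and Meis2 rose in Ezh2 KO, at log2 differences of 1.97 and 1.36 (adjusted p = 0.0909 and 0.0262), and Meis1 rose in Ezh1/2 dKO and Ezh2 Y726D, at 2.73 and 1.84 (adjusted p = 0.011 and 0.048). Of 7 tested upstream factors Cdx4, a caudal-type activator of Hox genes, rose in Ezh1/2 dKO by 2.56 (adjusted p = 0.0818), and 0 were called in Ezh2 KO or Ezh2 Y726D. Of 6 trithorax-side regulators 0 were called against WT. Some markers of other cell types were also higher in the lines where members were called. Their summed levels in WT and in Ezh1/2 dKO were 9.34 to 29.9 and 71.7 to 111 normalized counts for 6 primitive endoderm markers, 61.6 to 164 and 267 to 276 for 6 trophectoderm markers, 40 to 42.4 and 52.8 to 102 for 5 mesoderm markers, 536 to 1330 and 832 to 1080 for 4 neural markers and 4.81 to 12 and 106 to 116 for 5 fibroblast markers. In Ezh2 Y726D the sums were 41 to 48.1, 221 to 676, 62.4 to 169, 538 to 907 and 86.1 to 88.3, and in Ezh2 KO 5.23 to 28.1, 127 to 158, 16.7 to 23.2, 524 to 843 and 14.5 to 16.7. Single genes made up most of some sums, which therefore do not stand for their whole lists. Of the fibroblast sums Thy1 gave 88.2 and 101 in Ezh1/2 dKO and 84.7 and 76.1 in Ezh2 Y726D. Of the neural sums Tubb3 gave 1235 and 464 in WT. Cdx2 gave 440 of the 676 trophectoderm counts in Ezh2 Y726D replicate 2. The neural sums of Ezh1/2 dKO and Ezh2 Y726D lay within the WT range, and the mesoderm sums of Ezh2 KO lay below it. No mesoderm or neural marker was called against WT. Called against WT were Gata4, Gata3 and Thy1 in Ezh1/2 dKO and Gata3 and Thy1 in Ezh2 Y726D, genes named after their values were seen. Their part in the Hoxc values was not tested.

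Over the 8 libraries, the genes outside the cluster whose log2 values correlated best with the mean of the 6 tested members were St14, Mkl2, Kcnn3, Tshz1 and Ephx1, with Pearson r of 0.988, 0.983, 0.973, 0.972 and 0.97. These are the highest of all tested genes by choice, and the libraries share their lines, so they are given as a description. St14, the first, gave 343 and 585 normalized counts in WT and between 531 and 809 in the mutant libraries, so that WT replicate 1 was the lowest of the 8 for it, as it was for the summed members at 36 normalized counts beside 111 in WT replicate 2 and 101 to 210 in the mutants.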

How the data were processed

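The authors aligned reads to mm9, counted them per RefSeq gene with HTSeq-count without strand and divided the counts by DESeq2 size factors; the deposited values are normalized counts, used here as a signal with 2 libraries a line. Whole reads were recovered from each column, since 100% of values were whole multiples of its smallest (tolerance 1e-06). Tables of the authors' own comparisons with WT (fold changes and p-values) were not used. Peak lists were called by the authors with Bowtie, Picard and MACS2, and the deposited score is −log10 p per region; narrow lists reached p of 1e-10, and broad lists (H3K27me1, H3K27me2, ATAC) are weaker. HA lists hold positions only. Spike-in scaling was described for signal tracks, which were not used here. Scores of different lists, where set side by side, were not scaled to each other.

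From these, limma 3.58.1 (trend) was fitted to log2(normalized count + 1) of all 8 libraries, for genes with a mean of at least 5, with Benjamini-Hochberg adjustment over 13872 genes; calls needed an adjusted p below 0.1 and a change of 1 or more on the log2 scale. The recovered reads went through DESeq2 1.42.0 and edgeR 4.0.16 as alternatives. Peaks were assigned within 5 kb of GENCODE vM1 starts on mm9, the build of the sequences printed; some sequences are not reported here. Ratios of summed reads carry exact (Clopper-Pearson) 95% intervals. Scripts were tested on simulated data. Members and lists were chosen with earlier results of these data known; genes were named by rule (all members, Ezh1 and Ezh2, called genes of the lists, 3 per list at most, the 3 nearest genes on each side, and the 5 best correlated).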

Additional observations from a re-analysis of the deposited data

How the results depend on the processing

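The calls among the members were fragile. In Ezh1/2 dKO against WT, where 2 members were called, 1 was called with a pseudocount of 0.5, with a mean of at least 20, with TMM scaling, in a fit on the 4 libraries compared, by edgeR and by DESeq2, and 0 with no filter on low values, with quantile normalization or at an adjusted p under 0.05, while a pseudocount of 5 gave 3; leaving out 1 library gave 0 to 4. In Ezh2 Y726D against WT, where 1 was called, 0 were called with a mean of at least 20, in a fit on the 4 libraries, by edgeR or at an adjusted p under 0.05, and 2 by DESeq2, while with no filter on low values the 1 called was Hoxc8 in place of Hoxc10; leaving out 1 library gave 0 to 4. In Ezh2 KO against WT leaving out 1 library gave 0 to 2, and every other setting 0. The comparisons between mutant lines gave 0 in every setting. Replicate numbers did not pair the libraries (correlations of deviations from -0.409 to 0.288), and a replicate block gave 0, 2 and 1 calls against WT, with Hoxc9 in place of Hoxc4 in Ezh1/2 dKO, and 0 between mutants. Of the differences, Hoxc12 in Ezh2 KO turned to 0.12 with a pseudocount of 5, 0.18 with quantile normalization, 0.50 by edgeR and 0.53 by DESeq2, and lay between -1.67 and 1.57 when 1 library was left out; in Ezh1/2 dKO it turned to -0.69 with quantile normalization and lay between -0.54 and 1.12 when 1 library was left out, and in Ezh2 Y726D between -0.457 and 1.203. Hoxc13 in Ezh2 Y726D turned to -0.026 by edgeR and -0.009 by DESeq2; with 1 library left out it lay between -0.27 and 2.37 in Ezh2 KO, -0.52 and 2.12 in Ezh1/2 dKO and -0.78 and 1.86 in Ezh2 Y726D. The genes called higher against WT over the whole table ranged from 0 to 53 in Ezh2 KO (13 as reported), 1 to 631 in Ezh1/2 dKO (503) and 20 to 287 in Ezh2 Y726D (230), and those called between mutants from 53 to 1181 (496 in Ezh1/2 dKO against Ezh2 KO), 98 to 962 (489 in Ezh2 Y726D against Ezh2 KO) and 14 to 514 (233 in Ezh2 Y726D against Ezh1/2 dKO). The cause was not tested for any of these.

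Among the regions, Ezh2 Y726D members with SUZ12 numbered 2 within 1 kb (9.07% of all genes) and 3 with the first start only (9.54%). They numbered 0 at a p of at most 1e-20 (2.41%), where SUZ12 coverage in this line was 0%. With lists cut to the shortest they numbered 0 (1.22%), which left 1 member in WT (1.37%) and 2 in Ezh2 R685C (1.33%). Members with H3K27ac in Ezh2 KO numbered 1 within 1 kb (33.6% of all genes) or with lists cut to the shortest (32.2%). They numbered 0 at a p of at most 1e-20 (18.5%). At that p, H3K27ac was listed at 0 members in Ezh1/2 dKO (9.28%). H3K27ac coverage there fell to 0% in Ezh2 KO and Ezh1/2 dKO and to 16.3% in Ezh2 Y726D, and H3K27me3 coverage to 45.4% in WT. With 10 kb added on each side, H3K27me2 in WT covered 8.78% and H3K27me1 in WT 0.749%. The strongest 50000 regions covered 0% of the cluster for H3K27me2 in WT, 0.173% in Ezh1/2 dKO and in Ezh2 Y726D, 0.982% for H3K27me1 in Ezh2 KO and 0.397% in Ezh1/2 dKO, and for ATAC 4.32% in WT, 0.223% in Ezh2 KO, 5.1% in Ezh2 Y726D and 6.4% in Ezh1/2 dKO, with 4, 1, 2 and 4 members. Few reads per member and 1 library per list are the limits of all these values.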
